A study of Mus musculus with 12 samples.

Results

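Mouse skin excised 14 days after a thermal injury was set against skin excised 3 days after it, with 3 samples at each time. The samples were taken by their labelled times alone, and they made up 6 of the 12 samples in the series. The other 6 were labelled 0 hours and 2 hours, with 3 samples each, and the 0 hours samples are used here to place the level of a gene at 14 days. Every sample was total RNA from murine skin, hybridised to 1 Affymetrix array, and the labels describe a dermal burn after which skin was taken at these times. The sources used here give no strain, sex, age, burn site or burn depth, and leave unsaid whether the skin at 0 hours was burnt. The labels call the samples of a time repeats and do not say whether these were separate animals. Each p-value therefore reflects the spread among these samples and no more, and that spread may be technical.

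A burn kills the epidermis and part of the dermis, and the dead tissue draws in neutrophils and then monocytes that mature into macrophages. Chemokines of the CXC class mainly attract neutrophils and those of the CC class mainly attract monocytes. As this inflammation ends, keratinocytes crawl over the wound and restore the layered epidermis, fibroblasts lay down and remodel collagen, and hair follicles may enter anagen, the growing phase in which the hair shaft and its sheaths are built. The comparison of these times addresses which transcripts of inflammation had gone down and which transcripts of tissue growth had gone up.

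The deposited values were linear signal intensities per probe set, a set of short probes against a transcript. A signal below 225.375, the 25th percentile of all values, was raised to that floor before the log2 transform, so a fold whose lower group had an array at the floor is given as "at least". Genes were tested where a probe set read above 475.55, the pooled median, on at least 3 of the 12 arrays. That left 3477 of the 5599 genes that the deposited probe sets name singly. Below, genes on the array are those with such a probe set in the deposited values. Changes are log2 differences of the floored signal, 14 days minus 3 days, with the standard error of the limma fit after ±. A gene was called changed at an adjusted p (limma with Benjamini-Hochberg adjustment over the 3477 genes) under 0.05. With 3 arrays a group, the smallest p that an exact test could reach is 0.1.

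The 12 arrays had similar medians, from 448 to 496 signal units, and their number limits the precision of each value. Spearman correlations ran from 0.924 to 0.958 among the 3 days arrays, from 0.948 to 0.96 among the 14 days arrays and from 0.907 to 0.936 between the groups. The log2 ratio of the 3′ to the 5′ Gapdh control probe set, which rises as RNA degrades, was 0.52 ± 0.50 (SD, n = 3) at 3 days and 0.21 ± 0.08 at 14 days. The 3 days arrays differed among themselves, at 1.05, 0.47 and 0.05 for replicates 1, 2 and 3. Skeletal muscle genes had a mean log2 signal of 11.21 ± 0.47 (SD, n = 3) at 3 days, lowest on replicate 3 at 10.70, and 11.35 ± 0.24 at 14 days. At 0 hours both measures were higher, at 1.99 ± 0.29 and 12.25 ± 0.43 (SD, n = 3). The actin control gave mixed readings. Its 3′ to 5′ log2 ratio was 0.01 ± 0.21 at 0 hours, 0.23 ± 0.11 at 3 days and 0.35 ± 0.07 at 14 days. Its 3′ to middle log2 ratio was 2.77 ± 0.35, 1.19 ± 1.05 and 1.07 ± 0.23 at these times. The first of these ratios went the opposite way to Gapdh. Keratins 1 and 10, loricrin, filaggrin and collagens I and III, which define skin, were bright on all arrays, while Krt5 and Krt14 have no probe set here.

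Of the 3477 genes tested, 118 (3.39%) were called, 73 (2.1%) lower at 14 days and 45 (1.29%) higher. The lower genes were led by a serum amyloid, chemokines and macrophage receptors, and the higher genes by keratins of the hair follicle and proteins of the cornified layer of the epidermis. A change of at least 2-fold was reached by 57 of the lower and 32 of the higher genes. The median log2 change over all genes tested was 0.05. All 14 days arrays lay above all 3 days arrays for 373 genes (10.7%) and below them for 313 (9.0%), and an unadjusted p under 0.05 was reached by 408.

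Single arrays mattered for the less strong calls. Leaving out each of the 6 arrays in turn gave between 59 and 110 called genes. The count was 59 without 14 days replicate 2, 64 without 3 days replicate 3, 69 without 3 days replicate 2 and 76 without 14 days replicate 3. All 118 genes kept their direction each time, and 52 of them (23 higher, 29 lower) were called under every omission. With the Gapdh ratio as a covariate 123 genes were called, 96 of them among the 118.

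**Figure D1:**
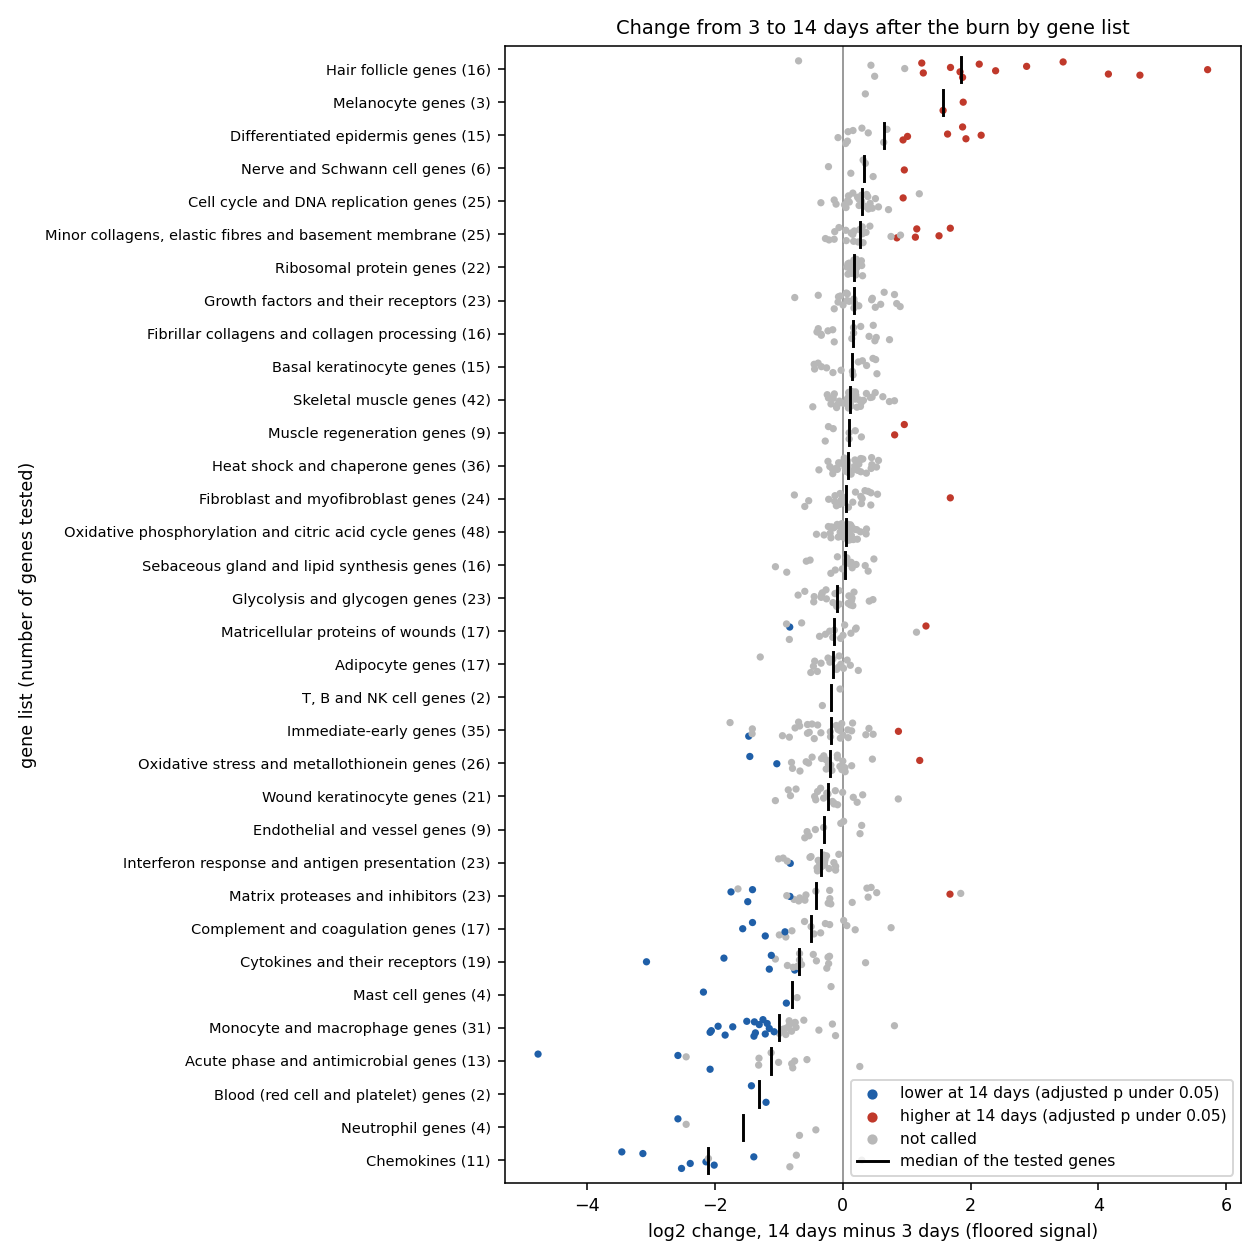
Log2 change from 3 to 14 days after the burn (x axis, floored signal) for each tested gene of 34 gene lists (y axis, number of genes tested in brackets), with 1 point per gene, coloured where the limma adjusted p was under 0.05, and a black bar at the list's median. Called genes of the chemokine, macrophage and acute phase lists lie to the left of 0 and those of the hair follicle, melanocyte and differentiated epidermis lists to the right, while muscle, ribosomal and respiratory chain genes hold no called gene.

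The chemokines fell furthest as a group. Of the 11 chemokine genes tested (19 on the array), 7 were called lower at 14 days and none higher, with a median log2 change of −2.10 against 0.05 over all genes. Over all genes 2.1% were called lower. The called chemokines were the neutrophil attractants Cxcl2 and Cxcl5, the monocyte attractants Ccl2, Ccl7 and Ccl8, the macrophage chemokine Ccl9, and Cxcl12, a chemokine of stromal cells. Leaving out each array in turn gave 5 to 8 called members. The filter kept 2 of the 7 through their 3 days signal, since fewer than 3 other arrays read above it, and 5 of the 19 genes were called lower without it.

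Cxcl2 had signals of 752, 1969.5 and 5152 at 3 days and 175, 32.9 and 28.7 at 14 days. The groups were far apart, and all 14 days arrays lay under the floor, as did the 0 hours arrays at 46.7, 32.5 and 51. The change was −3.13 ± 0.45 (at least 8.73-fold lower, adjusted p = 0.000955). Its log2 SD was 1.39 at 3 days and 0 at 14 days, where every array was set to the floor. Cxcl5 went from 1593, 1288 and 7381 to 180.3, 94.1 and 17.5, a change of −3.46 ± 0.44 (at least 11-fold lower, adjusted p = 0.000423), again with every 14 days array under the floor. For both genes 3 days replicate 3 was the brightest array, and without it the changes were −2.43 and −2.67, both still called. That array also had the lowest Gapdh ratio and muscle signal of its group, and with the ratio as a covariate both genes remained called (adjusted p = 0.000245 and 0.000298).

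The monocyte attractants behaved less evenly. Ccl8 was nearly the same on all arrays of a group, at 12016, 14051 and 13959 at 3 days and 2564, 2756 and 2335 at 14 days. It fell 5.23-fold (−2.39 ± 0.36, adjusted p = 0.00156) to a level close to that at 0 hours, 2001, 1794 and 2303. Ccl9 was as even, at 8734, 10359 and 12686.5 against 2415, 2431.5 and 2284, and fell 4.41-fold (−2.14 ± 0.30, adjusted p = 0.000846). Both were called under every omission of an array. Ccl2, by contrast, spread widely among the 3 days arrays.

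Ccl2 signals were 641, 1544 and 6325 at 3 days and 355, 356.5 and 260.4 at 14 days. The fall of −2.52 ± 0.60 (adjusted p = 0.0326) was lost on omission of any array except 3 days replicate 1 (highest adjusted p = 0.128). It was −3.28 without 3 days replicate 1 and −1.63 without 3 days replicate 3. Ccl7 read 556, 877 and 2120.1 against 193, 310.4 and 126, and its fall of −2.01 ± 0.42 (adjusted p = 0.0143) was lost without 3 days replicate 3, 14 days replicate 1 or 14 days replicate 3 (highest adjusted p = 0.0639). Cxcl12 fell 2.62-fold (−1.39 ± 0.24, adjusted p = 0.00356), but another probe set of that gene that passed the filter changed by only −0.32.

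The letters upstream of Cxcl2 and Ccl9 are shown because both genes fell and both hold a match to the kappaB site. NF-kappaB, the factor that binds kappaB sites, is a known regulator of inflammatory genes. The sequences are the 250 bases before the transcription start in RefSeq on mouse build GRCm38.p6, 5′ to 3′ on the gene's strand, for Cxcl2 at chr5:90903649-90903898 (plus strand) and Ccl9 at chr11:83578637-83578886 (minus strand). Capitals mark matches to the kappaB site (GGG, any 2 bases, then TTTCC) and to TATAAA (the TATA box) on either strand.
Cxcl2: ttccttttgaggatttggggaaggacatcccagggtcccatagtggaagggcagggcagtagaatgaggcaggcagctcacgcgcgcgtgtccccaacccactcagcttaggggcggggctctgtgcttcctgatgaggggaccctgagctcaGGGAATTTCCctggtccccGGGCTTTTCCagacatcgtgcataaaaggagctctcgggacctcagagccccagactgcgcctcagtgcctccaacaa
Ccl9: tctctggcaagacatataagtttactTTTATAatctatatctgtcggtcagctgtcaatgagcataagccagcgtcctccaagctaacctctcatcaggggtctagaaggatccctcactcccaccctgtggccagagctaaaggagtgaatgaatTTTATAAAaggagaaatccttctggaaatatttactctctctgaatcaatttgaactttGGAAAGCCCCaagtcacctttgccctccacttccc
Cxcl2 holds 2 kappaB matches, starting 97 and 78 bases before the start site. Ccl9 holds 1 on the opposite strand, 35 bases before it, and TATA matches at 224, 94 and 92 bases, the last pair overlapping. A kappaB match occurs in 1.4% of the 27025 gene promoters of that table, and in 2 of the 8 listed among the 12 genes with the largest fall. Those 2 are the genes shown, and the chemokine Ccl8, which also fell, has a listed promoter with no kappaB match. The motifs and the genes shown were chosen after the values and the matches were seen, and a match is a description of the letters only.

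Among cytokines and their receptors, 5 of 19 tested genes (24 on the array) were called lower and none higher, with a median of −0.68, and 1 was called without the filter. The filter kept 1 of the 5 through its 3 days signal. Il1b, the inflammatory cytokine interleukin 1 beta, read 744, 1859.6 and 5595 at 3 days and 257, 133 and 113 at 14 days. Its fall of −3.07 ± 0.48 (at least 8.4-fold, adjusted p = 0.00169) was largest without 3 days replicate 1 (−3.78) and smallest without 3 days replicate 3 (−2.32). The called receptors were Il4ra, the receptor chain for interleukins 4 and 13 (−1.86 ± 0.36), the macrophage growth factor receptor Csf1r (−1.15 ± 0.24) and the oncostatin M receptor Osmr (−1.12 ± 0.25), and the ligand of Csf1r, Csf1, fell by 0.75 ± 0.17 on the log2 scale. Il4ra was called under every omission of an array. The call of Csf1r was lost without 3 days replicate 2, 14 days replicate 1 or 14 days replicate 2 (highest adjusted p = 0.0994), that of Osmr was lost on omission of any array except 3 days replicate 1 or 14 days replicate 1 (highest adjusted p = 0.111) and that of Csf1 was lost whichever array was left out (highest adjusted p = 0.119). Leaving out each array in turn gave 2 to 5 called members, namely 2 without 3 days replicate 2 or 14 days replicate 2 and 3 without 3 days replicate 3 or 14 days replicate 1.

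Saa3, an acute phase serum amyloid made at sites of inflammation, had the largest fall of any called gene. Its signals were 3353, 17915 and 23161 at 3 days and 777.5, 393 and 198 at 14 days, next to 99.1, 120.0 and 305 at 0 hours. The 3 days arrays spread widely, and every one lay above every 14 days array. The change was −4.77 ± 0.65 (at least 27.2-fold lower, adjusted p = 0.000674), and it was called under every omission, from −5.63 without 3 days replicate 1 to −4.24. Of the 13 tested genes of the acute phase and antimicrobial list (17 on the array), 3 were called lower, Saa3, S100a9 and Cd14, and none higher, with a median of −1.12. The filter kept 2 of the 3 through their 3 days signal, and 1 was called without it. Without 3 days replicate 1, which had the lowest Saa3, Cxcl2 and Il1b of its group and the highest Gapdh ratio, 6 of the 13 were called. The count was 4 without 14 days replicate 1 and 2 without any other array.

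The calprotectin genes S100a8 and S100a9, taken here from the neutrophil list, differed from Saa3 in that 14 days replicate 1 had a high level. That array also had the highest wound keratins Krt6b and Krt16 of its group, and which cells made these transcripts was not tested. S100a9 read 1885.5, 4389.9 and 7747 at 3 days and 2115, 369 and 385 at 14 days, so the groups overlapped. It was the only called gene with such an overlap, at −2.58 ± 0.67 (adjusted p = 0.0464). S100a8 read 4341, 10512 and 16266 against 6347, 685 and 1047, a difference of −2.45 ± 0.76 that was not called (adjusted p = 0.119). The call of S100a9 was lost on omission of any array except 3 days replicate 1 or 14 days replicate 1 (highest adjusted p = 0.244), and also in the fit with the Gapdh ratio as covariate (adjusted p = 0.0509). Without 14 days replicate 1 both genes were called lower, S100a8 at −3.42 (adjusted p = 0.0107) and S100a9 at −3.41 (adjusted p = 0.00562). Of the 4 neutrophil genes tested, of 11 on the array, S100a9 alone was called, and none was without the filter. S100a9 passed the filter through its 3 days signal. S100a8 was well above the floor on all 14 days arrays.

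**Figure D2:**
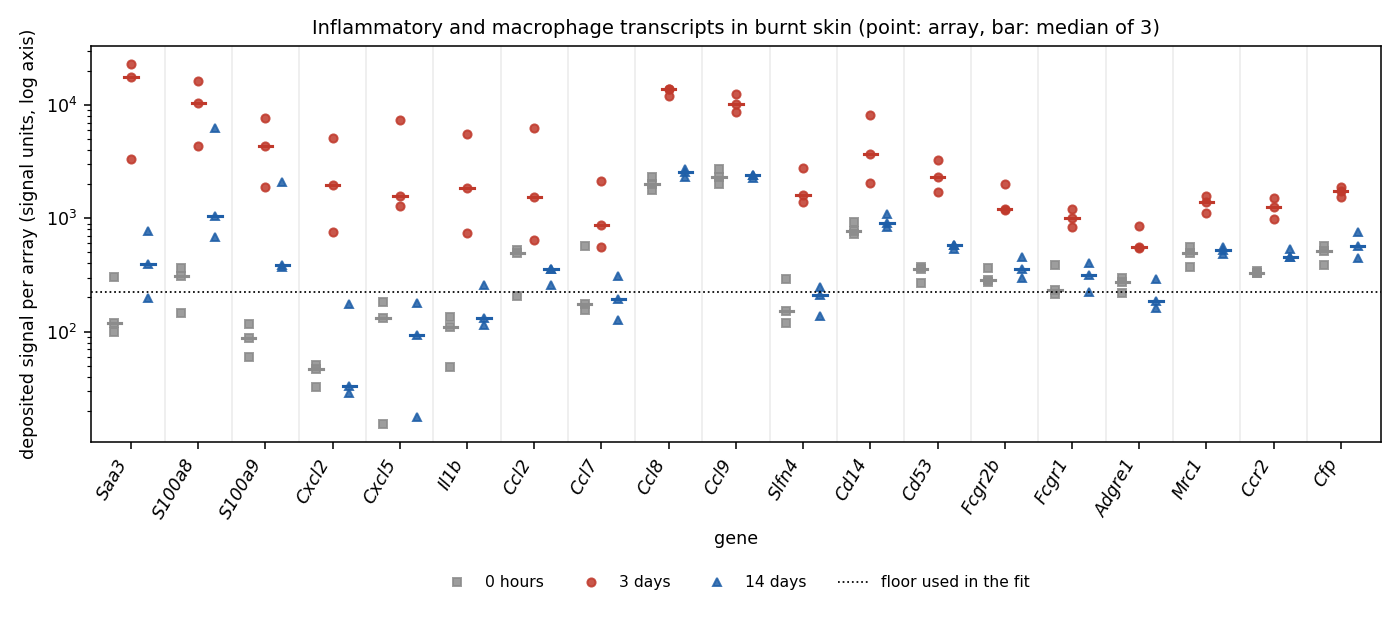
Deposited signal per array (y axis, log scale, signal units) of 19 inflammatory and macrophage genes (x axis) at 0 hours (grey squares), 3 days (red circles) and 14 days (blue triangles), with a bar at the median of each group of 3 and a dotted line at the floor of 225 used in the fit. The 14 days arrays lie below the 3 days arrays for every gene except S100a8 and S100a9, where 1 array at 14 days reaches 6347 and 2115.

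Macrophage transcripts fell as a broad group. Of 31 monocyte and macrophage genes tested (44 on the array), 15 were called lower and none higher, and the median was −0.99. In 26 of the 31 all 14 days arrays lay below all 3 days arrays, against 9.0% of all genes tested. The summed signal of the 44 genes was 112200 to 154600 at 3 days, 76290 to 87450 at 14 days and 62630 to 75190 at 0 hours. In bulk skin, fewer macrophages and less of these RNAs per cell cannot be told apart. Leaving out an array gave 9 to 14 called members, 9 without 3 days replicate 2, without 3 days replicate 3 or without 14 days replicate 2, and without the filter 7 were called. The filter kept 5 of the 15 through their 3 days signal.

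Cd14, the co-receptor for bacterial lipopolysaccharide, read 2036, 3704 and 8251 at 3 days and 1099, 904.5 and 836 at 14 days, against 921, 775 and 735 at 0 hours. It fell 4.21-fold (−2.08 ± 0.37, adjusted p = 0.00422). The leukocyte tetraspanin Cd53 went from 1698, 2339.9 and 3253 to 585, 533 and 577, a 4.16-fold fall (−2.06 ± 0.25, adjusted p = 0.000288). All 3 days arrays of both genes lay above all arrays of the other group, and the spread at 14 days was small.

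The receptors for the Fc part of antibodies fell too. Fcgr2b, the inhibitory receptor, read 1203, 1176 and 1994 against 457, 297 and 361 and fell 3.86-fold (−1.95 ± 0.25, adjusted p = 0.000449). Fcgr1, the high-affinity receptor, fell by 1.72 ± 0.27 (adjusted p = 0.00169). Adgre1, which encodes a surface antigen of mouse macrophages, went from 547, 559 and 861 to 288.5, 163 and 185 (−1.39 ± 0.23, at least 2.62-fold lower, adjusted p = 0.00263). The mannose receptor Mrc1 changed by −1.38 ± 0.23 and the Ccl2 receptor Ccr2 by −1.37 ± 0.23, and all of these were called under every omission of an array. Tyrobp, an adaptor of myeloid receptors, fell by 1.25 ± 0.24, a call lost without 3 days replicate 3 or 14 days replicate 2 (highest adjusted p = 0.0587).

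Several macrophage genes were not called. The lysosomal marker Cd68, at 1958, 1732 and 2412 against 1046, 1104 and 1023, differed by −0.93 ± 0.29 (adjusted p = 0.121), Ctss by −0.88 ± 0.30 and Lyz2 by −0.75 ± 0.28. For all 3 the 14 days arrays lay below the 3 days arrays and above those at 0 hours. Of the C1q subunits, which start the classical complement pathway, C1qb fell from 5549.7, 5664 and 5896 to 2591, 2257 and 2548 (−1.21 ± 0.27, adjusted p = 0.0228), a call lost whichever array was left out (highest adjusted p = 0.111). C1qa (−0.89 ± 0.41) and C1qc (−0.99 ± 0.29) were not called. Slfn4, a Schlafen gene of myeloid cells, was on no list but had the smallest p among the falls, from 1391, 1612 and 2800.3 to 246, 211 and 136 (−2.99 ± 0.23, at least 7.95-fold, adjusted p = 7.74e-06).

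In the complement and coagulation list, 4 of 17 tested genes (25 on the array) were called lower and none higher, with a median of −0.50, and 2 were called without the filter. The filter kept 1 of the 4 through its 3 days signal. The 4 were C1qb, the complement stabiliser properdin, Cfp (−1.57 ± 0.27, adjusted p = 0.00356), the C3a receptor C3ar1 (−0.90 ± 0.22) and the plasminogen activator inhibitor Serpinb2 (−1.41 ± 0.29). Cfp was called under every omission of an array. Serpinb2 was lost without 14 days replicate 2 (highest adjusted p = 0.0818), and C3ar1 was lost on omission of any array except 3 days replicate 1 (highest adjusted p = 0.165). The list held 1 called member without 14 days replicate 2 and 2 without 3 days replicate 2, 3 days replicate 3, 14 days replicate 1 or 14 days replicate 3. Of 23 interferon response and antigen presentation genes tested, 1 was called lower (Ifi204, −0.82 ± 0.21, adjusted p = 0.0425) and none higher. All 23 differences were negative, with a median of −0.34, and in 8 all 14 days arrays lay below all 3 days arrays, against 9.0% of all genes tested. That call was lost on omission of any array except 3 days replicate 1 (highest adjusted p = 0.22). Of the 2 tested genes of T, B and NK cells none was called, and their defining markers Cd3e and Cd3g have no probe set here.

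Mast cell genes pointed the same way. Hdc, which makes histamine and is also active in other myeloid cells, read 533, 1002 and 1994 at 3 days and 157.5, 102 and 106.5 at 14 days, all of the latter under the floor. It fell by 2.18 ± 0.34 (at least 4.53-fold, adjusted p = 0.00169). The mast cell chymase Cma1 fell 1.84-fold, from 3404, 3079.9 and 3035 to 1572.5, 1801 and 1794 (−0.88 ± 0.20, adjusted p = 0.0221), and its call was lost whichever array was left out (highest adjusted p = 0.0885). The other 2 tested genes, Tpsb2 and Cpa3, were not called. Hdc passed the filter through its 3 days signal.

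Hair follicle genes showed the largest rises. Of 16 tested (29 on the array), 12 were called higher at 14 days and none lower, with a median of 1.85 against 0.05 over all genes and 1.29% of all genes called higher. Their summed signal over the 29 genes was 6925 to 8092 at 3 days, 28850 to 74630 at 14 days and 9064 to 18870 at 0 hours. The filter kept 10 of the 12 through their 14 days signal, so the count describes these genes and does not stand for the whole list, and 6 of the 29 were called without the filter. Leaving out each array in turn gave 10 to 12 called members.

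The inner root sheath, the layers that mould the growing hair, gave the largest rises of all. Krt71 read 59.2, 142 and 219 at 3 days, all under the floor, and 7447.5, 12179 and 18029.5 at 14 days. It rose at least 52.3-fold (5.71 ± 0.48, adjusted p = 1.10e-05). Krt25 went from 11.8, 11.2 and 9.5 to 3321, 5811 and 9371 (at least 25.1-fold, 4.65 ± 0.48, adjusted p = 0.000104), and Krt27 from 150.4, 128 and 78.6 to 2218, 3832 and 7625 (at least 17.8-fold, 4.16 ± 0.55, adjusted p = 0.000552). In each of these keratins 14 days replicate 3 was the brightest array and replicate 1 the dimmest. The 0 hours arrays lay between the groups for Krt71, at 313, 1886 and 1283. For Krt25 they read 143, 1249 and 324, the first under the floor and the others between the groups.

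The promoters of these keratins are shown because the genes rose together from signals under the floor and GATA3 is a known regulator of inner root sheath fate. The windows are again the 250 bases before the start in RefSeq on GRCm38.p6, all on the minus strand, for Krt71 at chr15:101743098-101743347, Krt25 at chr11:99322952-99323201 and Krt27 at chr11:99351119-99351368. Capitals mark matches to AGATAA (the GATA site) and TATAAA (the TATA box) on either strand.
Krt71: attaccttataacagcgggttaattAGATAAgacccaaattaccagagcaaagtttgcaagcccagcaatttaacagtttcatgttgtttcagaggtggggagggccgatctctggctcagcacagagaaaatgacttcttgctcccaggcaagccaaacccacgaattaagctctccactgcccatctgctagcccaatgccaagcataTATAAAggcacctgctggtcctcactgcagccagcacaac
Krt25: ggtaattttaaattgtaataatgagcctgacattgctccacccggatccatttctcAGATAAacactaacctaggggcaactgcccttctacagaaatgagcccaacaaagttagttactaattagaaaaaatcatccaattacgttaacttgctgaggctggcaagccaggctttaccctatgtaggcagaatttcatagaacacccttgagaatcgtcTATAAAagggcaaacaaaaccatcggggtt
Krt27: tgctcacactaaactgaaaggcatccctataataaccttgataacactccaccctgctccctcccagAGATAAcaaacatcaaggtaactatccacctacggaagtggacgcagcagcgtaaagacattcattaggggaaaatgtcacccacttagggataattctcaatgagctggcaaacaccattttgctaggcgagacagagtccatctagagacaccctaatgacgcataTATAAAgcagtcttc
The GATA match starts 225, 194 and 183 bases before the start site in Krt71, Krt25 and Krt27, and the TATA match 40, 30 and 15 bases before it. AGATAA occurs in 10.3% and TATAAA in 13% of the 27025 promoters of this length. Among the 9 of the 12 largest rises with a listed promoter, 3 hold AGATAA and 7 hold TATAAA, against 1 and 4 of the 8 listed among the largest falls. The 3 that hold AGATAA are the genes shown, and the choice was made after the values were seen. Gata3 itself was not called (0.50 ± 0.28, adjusted p = 0.58).

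Keratins and associated proteins of the hair shaft rose with the sheath. S100a3, a calcium-binding protein of the hair cuticle, read 326, 223 and 204 at 3 days and 1512, 2745 and 5174 at 14 days (at least 10.9-fold, 3.45 ± 0.41, adjusted p = 0.000221). A separate probe set of S100a3 rose by 2.10. Krtap3-1, a keratin-associated protein of the shaft, went from 177.5, 208 and 138 to 1562, 898 and 3232.5 (at least 7.34-fold, 2.88 ± 0.46). Krtap8-1 rose at least 4.39-fold (2.14 ± 0.43), and the shaft keratins Krt35 and Krt33b by 2.39 ± 0.33 and 1.83 ± 0.32. The groups did not overlap for any of these genes. Members of keratin and keratin-associated families are similar in sequence, and how far these probe sets separate them was not tested.

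Regulators of the follicle rose as well. The homeobox gene Dlx3, needed for hair formation, read 377, 339 and 233 at 3 days and 632, 1482 and 1569 at 14 days (3.67-fold higher, 1.87 ± 0.35, adjusted p = 0.00631). Ptch1, the hedgehog receptor and a target of that pathway, went from 277, 148 and 104.5 to 554, 693 and 479 (at least 2.36-fold, 1.24 ± 0.20, adjusted p = 0.00245). A dimmer probe set of Ptch1 that did not pass the filter differed by 0.29. The other 2 called members, named after their values were seen, were Krt86 (1.69 ± 0.43, adjusted p = 0.0445) and Krt32 (1.26 ± 0.26, adjusted p = 0.0133), while Krt81, Krtap5-1, Selenbp1 and Gata3 were not called. Krt86 was lost on omission of any array except 14 days replicate 1 or 14 days replicate 2 (highest adjusted p = 0.148). Krt32 was lost without 3 days replicate 3 or 14 days replicate 3 (highest adjusted p = 0.0768).

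Pigment genes rose with those of the follicle. Pmel, which builds the fibrils on which melanin is laid down, read 229, 310.2 and 266.5 at 3 days and 667, 1160.2 and 1231 at 14 days and rose 3.69-fold (1.88 ± 0.23, adjusted p = 0.000261). Dct, an enzyme of melanin synthesis, went from 354, 413 and 413 to 882.5, 1547.5 and 1155 (2.97-fold, 1.57 ± 0.24, adjusted p = 0.00155). For both, the 0 hours and 3 days arrays overlapped. Of 3 melanocyte genes tested (6 on the array) these 2 were called, under every omission of an array, and the lineage factor Sox10 was not. Both passed the filter through their 14 days signal, so the count describes these genes alone.

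**Figure D3:**
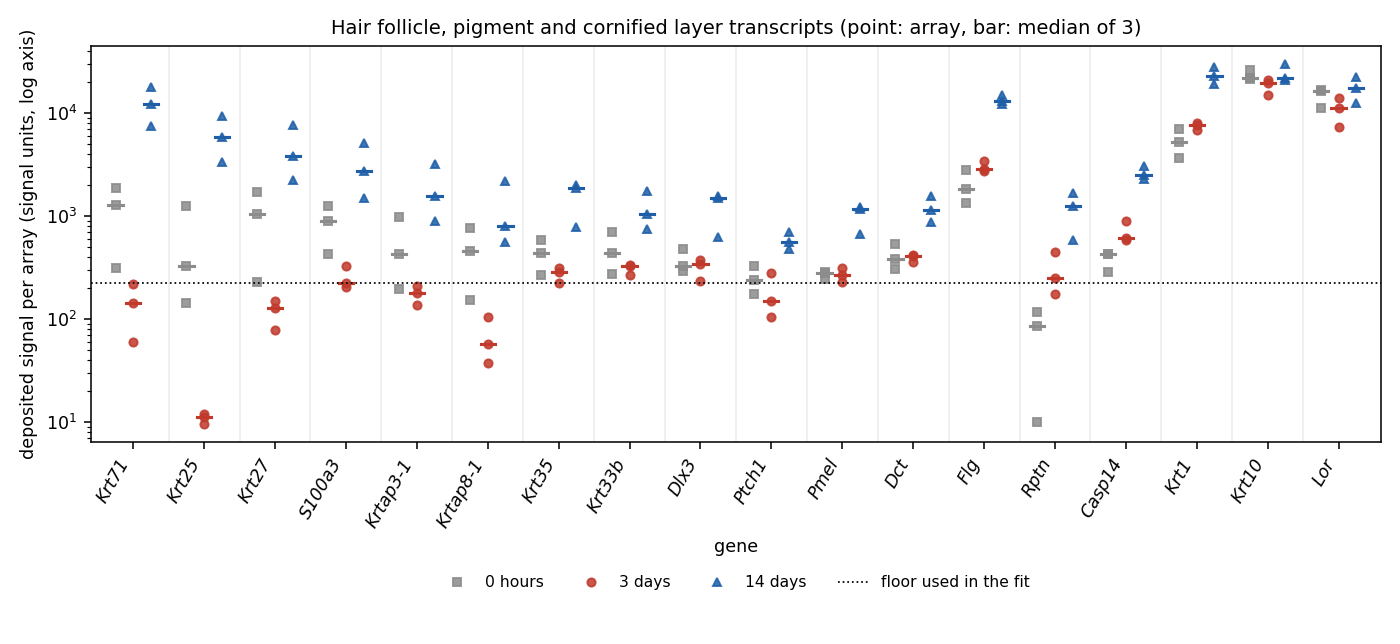
Deposited signal per array (y axis, log scale, signal units) of 18 hair follicle, pigment and epidermal genes (x axis) at 0 hours (grey squares), 3 days (red circles) and 14 days (blue triangles), with a bar at the median of each group of 3 and a dotted line at the floor of 225 used in the fit. All 14 days arrays lie above all 3 days arrays except for Lor at the right, where the groups overlap, and the inner root sheath keratins at the left show the widest gap.

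Some genes of the differentiated epidermis rose as well. Of 15 differentiated epidermis genes tested (19 on the array), 6 were called higher and none lower, with a median of 0.64. Over all genes 1.29% were called higher. The filter kept 2 of the 6, Rptn and Dsc1, through their 14 days signal. Flg, which encodes the filaggrin precursor profilaggrin, read 2736.5, 2836 and 3437.5 at 3 days and 13082, 12374 and 14871 at 14 days. It rose 4.49-fold (2.17 ± 0.24, adjusted p = 0.000169), with tight arrays at both times. Casp14, a protease that processes filaggrin, went from 612, 588 and 885 to 2500.0, 2302.5 and 3042 (3.8-fold, 1.93 ± 0.22, adjusted p = 0.000189). Rptn, a relative of profilaggrin, rose at least 3.67-fold (1.87 ± 0.32, adjusted p = 0.00365).

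Krt1, a keratin of the suprabasal layers, rose 3.12-fold, from 6859.9, 7599 and 7937 to 23168, 19189 and 28164 (1.64 ± 0.25, adjusted p = 0.00154). Its partner Krt10 differed by 0.40 ± 0.20 and was not called (adjusted p = 0.492), nor was loricrin, Lor (0.69 ± 0.27, adjusted p = 0.258), although both were among the brightest epidermal transcripts. The remaining called members were the filaggrin protease Asprv1 (0.94 ± 0.19) and the desmosomal cadherin Dsc1 (1.01 ± 0.26). Asprv1 was lost without 3 days replicate 3 or 14 days replicate 3 (highest adjusted p = 0.0759). Dsc1 was lost whichever array was left out (highest adjusted p = 0.185), and also in the fit with the Gapdh ratio as covariate (adjusted p = 0.109). Leaving out an array gave 4 or 5 called members, and 4 of 19 were called without the filter.

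Flg, Casp14 and Krt1 stood above their 0 hours levels at 14 days. Their 0 hours signals were 1338, 2768 and 1836 for Flg, 283, 431 and 426 for Casp14 and 3653, 5217 and 6973.5 for Krt1. Against 0 hours, a comparison that shares the 14 days arrays, the changes were 2.82 ± 0.24, 2.80 ± 0.22 and 2.19 ± 0.25 (adjusted p = 1.36e-05, 8.81e-06 and 0.000131). In that comparison 353 genes (10.2%) were called, 240 higher and 113 lower. Adding the Gapdh ratio as a covariate gave 2 called genes, 1 of them among the 353, and adding the muscle mean gave 10, so time, RNA quality and muscle signal cannot be told apart there.

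Keratinocyte genes switched on in wounds did not show a called change between 3 and 14 days. None of 21 tested (29 on the array) was called in either direction, 2 had an unadjusted p under 0.05, and the median was −0.23. Among the 14 days arrays, replicate 1 was far brighter than the others. Krt6b, a keratin of wounded and hyperproliferative epidermis, read 16276, 17498 and 21146 at 3 days and 35163, 3817 and 8187 at 14 days (−0.82 ± 0.56, adjusted p = 0.688). Krt16 read 8213, 9415 and 11059.7 against 22710.4, 3423.5 and 5896 (−0.30 ± 0.54, adjusted p = 0.921), and Krt6a 30931, 33499.8 and 30464 against 48307, 13297 and 19675 (−0.44 ± 0.36).

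For these keratins 14 days replicate 1 lay above every 3 days array and replicates 2 and 3 below every one. Without 14 days replicate 1, 3 members were called, against 1 without 3 days replicate 1 and 0 without any other array, and Krt6b changed by −1.70 (adjusted p = 0.0175). Sprr1a, a cornified envelope precursor, differed by 0.00 ± 0.32, the gap junction gene Gjb2 by −0.16 ± 0.35 and the protease Klk6 by −0.42 ± 0.29. At 0 hours Krt16 read 56.5, 171 and 442 and Klk6 54.7, 28.1 and 128. Against 0 hours the changes at 14 days were 4.77 ± 0.54 for Krt16, 4.03 ± 0.56 for Krt6b, 3.41 ± 0.35 for Gjb2 and 3.32 ± 0.29 for Klk6, all called higher. As above, time, RNA quality and muscle signal cannot be told apart in that comparison. Krt6a and Krt6b, and the members of the Sprr2 family, are close in sequence and may share probes. Basal keratinocyte genes, such as integrins and laminin chains, held no called member among 15 tested, at a median of 0.15.

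Of the matrix, minor components moved and the main fibrillar collagens did not pass the test. Among 25 tested minor collagens, elastic fibre and basement membrane genes (31 on the array), 5 were called higher and none lower, with a median of 0.26, and 3 were called without the filter. Col7a1, the anchoring fibril collagen that ties epidermis to dermis, read 1161, 1173.5 and 972 at 3 days and 4709, 2259 and 2852 at 14 days (2.84-fold higher, 1.51 ± 0.24, adjusted p = 0.002). Mfap2, a protein of elastic microfibrils, went from 871, 939 and 1195 to 2689, 2274 and 1776 (1.16 ± 0.22, adjusted p = 0.00631). Both were called under every omission of an array.

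The other 3, Mfap4 (1.68 ± 0.38), Col6a2 (1.14 ± 0.28) and Col6a1 (0.85 ± 0.19), rested on the full set of arrays. Mfap4 and Col6a1 were lost on omission of any array except 14 days replicate 3 (highest adjusted p = 0.122 and 0.144), and Col6a2 was lost whichever array was left out (highest adjusted p = 0.164). Col6a1 and Col6a2 were also not called with the Gapdh ratio as a covariate (adjusted p = 0.052 and 0.0854). The count of the list was 2 without each of the other 5 arrays and 6 without 14 days replicate 3. A separate Col6a1 probe set rose by 1.12. Among matricellular proteins, 1 of 17 tested was called higher and 1 lower. Thbs2, an inhibitor of vessel growth, read 865, 513 and 1032 against 2318, 1795 and 1648.5 (1.30 ± 0.28, adjusted p = 0.0188), a call lost without 3 days replicate 2, 14 days replicate 1 or 14 days replicate 2 (highest adjusted p = 0.104). Tgfbi, a secreted adhesion protein induced by transforming growth factor beta, fell by 0.83 ± 0.19 (adjusted p = 0.028). Its call was lost on omission of any array except 14 days replicate 1 or 14 days replicate 3 (highest adjusted p = 0.176), and also in the fit with the Gapdh ratio as covariate (adjusted p = 0.0523).

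The fibrillar collagens were bright throughout. Col1a1 read 22992, 26290.0 and 29348 at 3 days and 40385, 37829.5 and 33035 at 14 days, without overlap, and differed by 0.50 ± 0.18 (adjusted p = 0.218). Col1a2, the partner chain of type I collagen, read 13285, 13396 and 15141 against 29712, 22968 and 18074 (0.73 ± 0.20, adjusted p = 0.0565) and was called without 14 days replicate 3 (adjusted p = 0.0291). For both, on these probe sets, the 14 days arrays lay above the 3 days arrays and below the 0 hours arrays. Second probe sets that passed the filter changed by only 0.21 for Col1a1 and 0.18 for Col1a2, and their groups overlapped. Col3a1 (0.14 ± 0.23) and the collagen cross-linking enzyme Lox (−0.34 ± 0.33) overlapped between the groups. None of 16 tested genes of fibrillar collagens and their processing was called, 3 had an unadjusted p under 0.05, and the median was 0.15.

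Transcripts of the wound matrix proteins periostin and tenascin C were above their 0 hours levels at 14 days. Time, RNA quality and muscle signal cannot be told apart in the comparison with 0 hours. Postn, the periostin gene, read 1420.3, 4310.5 and 2525.5 at 0 hours, 4219, 4249 and 6055 at 3 days and 14069.6, 9989 and 8503 at 14 days. Its difference between the later times was 1.15 ± 0.33 (adjusted p = 0.0767), not called, and against 0 hours it was 2.09 ± 0.33 (adjusted p = 0.00174). Tnc, the tenascin C gene, read 1512, 1834 and 4641 at 3 days and 2965.5, 1187 and 587 at 14 days (−0.88 ± 0.47, adjusted p = 0.534), against 13.5, 179 and 198 at 0 hours (change at 14 days 2.50 ± 0.47, adjusted p = 0.00509). Here too 14 days replicate 1 was the brightest of its group. The myofibroblast actin Acta2 differed by 0.09 ± 0.29, and of 24 tested fibroblast and myofibroblast genes Mfap4 alone was called.

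Proteases of the matrix changed in both directions. Of 23 proteases and inhibitors tested (28 on the array), 4 were called lower and 1 higher, with a median of −0.42, and without the filter 1 was called in each direction. The gene called higher passed the filter through its 14 days signal. Mmp3, stromelysin 1, read 1730.4, 2375 and 3676 at 3 days and 886, 626 and 719 at 14 days and fell 3.36-fold (−1.75 ± 0.29, adjusted p = 0.00263). It ended below its 0 hours signals of 1406, 1983 and 2426. Mmp11, stromelysin 3, moved the other way, from 218.5, 137 and 225 to 868, 747 and 578 (at least 3.2-fold, 1.68 ± 0.20, adjusted p = 0.000221). Both were called under every omission of an array.

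The other falls were Adam8 (−1.49 ± 0.30, adjusted p = 0.0111), a membrane protease of leukocytes, Serpinb2 and the lysosomal Ctsl (−0.83 ± 0.20, adjusted p = 0.0361). Adam8 was lost without 14 days replicate 2 or 14 days replicate 3 (highest adjusted p = 0.0603), and Ctsl was lost on omission of any array except 14 days replicate 1 (highest adjusted p = 0.223). The list had 2 called members without 14 days replicate 2 and 3 without 14 days replicate 3. Timp1, the main inhibitor of these enzymes in inflamed tissue, read 3132, 8118 and 14574 against 4188.5, 1559 and 1876.5 (−1.64 ± 0.47, adjusted p = 0.0853). Its groups overlapped through 14 days replicate 1 and 3 days replicate 1, and it was called without either array (adjusted p = 0.0321 and 0.0062) and in the fit with the Gapdh ratio as covariate (0.0372).

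**Figure D4:**
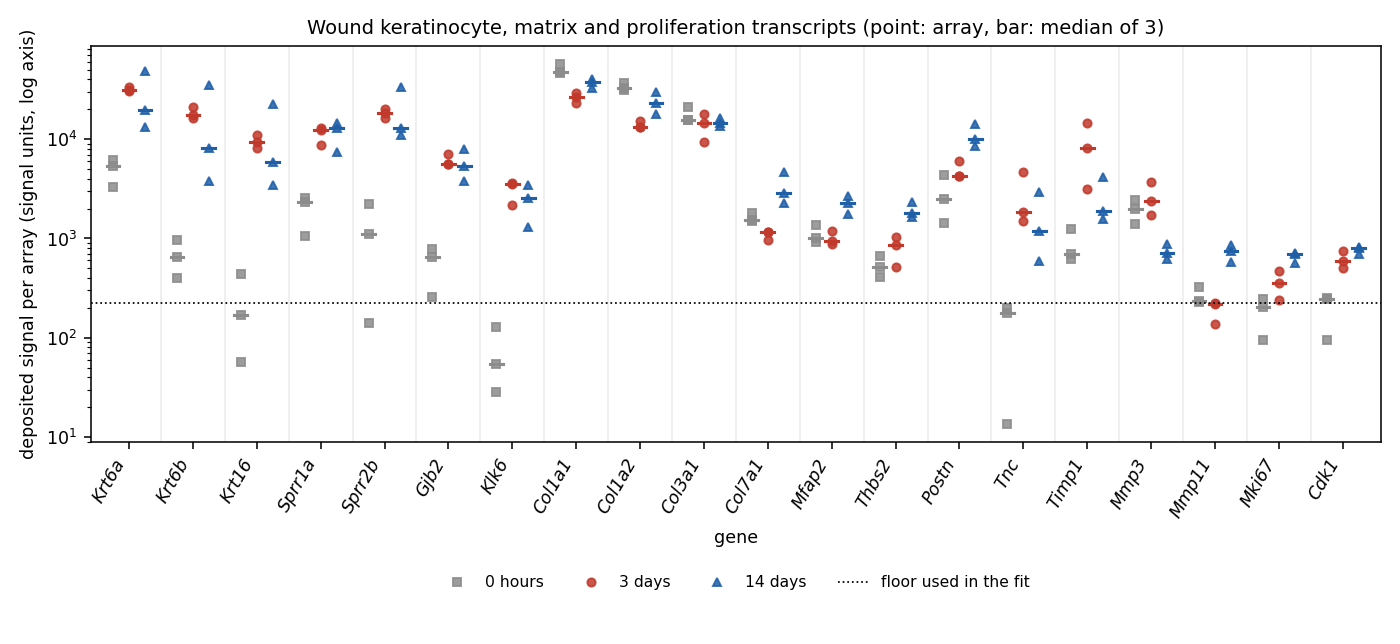
Deposited signal per array (y axis, log scale, signal units) of 20 wound keratinocyte, matrix, protease and proliferation genes (x axis) at 0 hours (grey squares), 3 days (red circles) and 14 days (blue triangles), with a bar at the median of each group of 3 and a dotted line at the floor of 225 used in the fit. The wound keratins at the left overlap between 3 and 14 days and lie above 0 hours, with 1 array at 14 days reaching 48307 for Krt6a, while Mmp3 and Mmp11 towards the right move in opposite directions.

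Of 25 cell cycle and DNA replication genes tested (46 on the array) 1 was called, higher, and the median was 0.29. None was called without the filter. The called gene passed the filter through its 14 days signal. Mki67, the marker of cycling cells, read 205, 245 and 94.6 at 0 hours, 239, 472 and 355.5 at 3 days and 570.5, 722 and 695.5 at 14 days. It rose 1.92-fold (0.94 ± 0.22, adjusted p = 0.028), a call lost on omission of any array except 3 days replicate 2 or 14 days replicate 1 (highest adjusted p = 0.14), and also lost in the fit with the Gapdh ratio as covariate (adjusted p = 0.0633). Cdk1, the mitotic kinase, read 499.9, 595 and 755 against 812, 802 and 698 (0.34 ± 0.18, adjusted p = 0.541), and the helicase subunit Mcm5 differed by 0.26 ± 0.22. Against 0 hours Cdk1 differed by 1.68 ± 0.18 (adjusted p = 0.00011) and Mcm5 by 2.09 ± 0.22 (adjusted p = 9.80e-05). In that comparison RNA quality and muscle signal cannot be told apart from time.

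Stress genes were called singly. In the oxidative stress list 2 of 26 tested genes were called lower and 1 higher, and 1 was called without the filter. The extracellular superoxide dismutase Sod3 fell from 2408, 3994 and 4892 to 1274.5, 1305.5 and 1375 (−1.45 ± 0.26, adjusted p = 0.00413), a call kept under every omission. Hmox1, which breaks down haem and is strong in macrophages that take up red cells, fell by 1.03 ± 0.22 (adjusted p = 0.0148), and the epidermal metallothionein Mt4 rose by 1.20 ± 0.30 (adjusted p = 0.0399). Both calls were lost on omission of any array except 3 days replicate 1 or 14 days replicate 1 (highest adjusted p = 0.099 and 0.208). Leaving out each array in turn gave 1 to 5 called members, namely 1 without 3 days replicate 2, 3 days replicate 3, 14 days replicate 2 or 14 days replicate 3 and 5 without 3 days replicate 1. Among 35 immediate-early genes Cebpd, an inflammatory transcription factor, was called lower (−1.47 ± 0.28) and the Notch target Hes1 higher (0.87 ± 0.22). Hes1 was lost whichever array was left out (highest adjusted p = 0.177), and Cebpd without 14 days replicate 2 (adjusted p = 0.0539). Neither was called without the filter. Leaving out each array in turn gave 0 to 5 called members, namely 0 without 14 days replicate 2 and 1 without 3 days replicate 2, 3 days replicate 3, 14 days replicate 1 or 14 days replicate 3 and 5 without 3 days replicate 1.

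Globin transcripts of red cells fell. Hba-a1 read 21249.9, 19016 and 20723 at 3 days and 10006, 6234 and 11068.5 at 14 days (−1.20 ± 0.27, adjusted p = 0.0209), and Hbb-b2 3475, 2905 and 4821 against 1573, 1045 and 1517.5 (−1.43 ± 0.30, adjusted p = 0.0133). These were the 2 tested genes of the blood list, and the arrays did not overlap. Neither was called without the filter. Leaving out each array in turn gave 0 to 2 called members, namely 0 without 3 days replicate 3 or 14 days replicate 2 and 1 without 3 days replicate 1 or 3 days replicate 2. The copies of each globin are close in sequence and may share probes. How far blood held in the excised skin contributed to other falls was not tested.

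Most lists of other tissues held no called gene. None was called among 42 skeletal muscle genes (median 0.11), 48 genes of the respiratory chain and citric acid cycle (0.04), 22 ribosomal protein genes (0.18), 36 heat shock and chaperone genes (0.09), 23 of glycolysis (−0.10), 17 adipocyte genes (−0.15), 16 of sebaceous glands and lipid synthesis (0.03), 9 endothelial genes (−0.30) or 23 growth factors and receptors (0.17). The growth factors Vegfd and Mdk were not among those 23. Mdk was called higher and is given further on. Vegfd was called lower (−0.80, adjusted p = 0.0276), a call lost on omission of any array except 3 days replicate 1 (highest adjusted p = 0.13). Ncam1, a cell adhesion gene of nerve and regenerating muscle, rose from 426, 513 and 386 to 951.5, 942 and 699 (0.96 ± 0.21, adjusted p = 0.0188) and Dlk1, an inhibitor of fat cell formation, by 0.81 ± 0.20 (adjusted p = 0.0384). Ncam1 was lost on omission of any array except 3 days replicate 2 or 14 days replicate 3 (highest adjusted p = 0.108), and Dlk1 was lost on omission of any array except 3 days replicate 1 (highest adjusted p = 0.196). They were the called members of the muscle regeneration list, where Myod1 and Myog were not called.

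Inflammatory genes stood at different places at 14 days relative to 0 hours. Against 0 hours, with the 14 days arrays shared, the difference was 0.72 ± 0.65 for Saa3, 0.33 ± 0.36 for Ccl8, 0.03 ± 0.30 for Ccl9, 0.22 ± 0.37 for Cd14, 0.25 ± 0.25 for Fcgr2b and 0.16 ± 0.23 for Mrc1, none of them called. Cd53 differed by 0.78 ± 0.25 (adjusted p = 0.0618), while Adam8 (0.99 ± 0.30, adjusted p = 0.0491) and Ctss (1.13 ± 0.30, adjusted p = 0.0285) were called higher than at 0 hours. The change of Ctss from 3 to 14 days was not called (limma adjusted p = 0.181). S100a9 differed by 1.57 ± 0.67 (adjusted p = 0.137, not called), with all 14 days arrays above and the 0 hours arrays under the floor. Cebpd (−0.999 ± 0.28, adjusted p = 0.0357) and Mmp3 (−1.36 ± 0.29, adjusted p = 0.00956) were called lower than at 0 hours. The follicle keratins were above 0 hours, by 3.69 ± 0.48 for Krt71 and 3.65 ± 0.48 for Krt25 (adjusted p = 0.000431 and 0.000443). All of these rest on the comparison in which the Gapdh covariate left 1 of the 353 calls.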

How the data were processed

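Groups and replicate numbers are those of the labels. The authors deposited a linear signal intensity for each probe set, with no detection calls. Their software, scaling and choice of probe sets are not stated in the sources used here, and no further scaling was applied. Among 7275 probe sets, 27 were controls, 6551 named exactly 1 gene, 251 several and 446 none.

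Signals were raised to a floor of 225.375 and log2-transformed, probe sets had to exceed 475.55 on at least 3 arrays, and a gene took its probe set with the highest mean. A single limma fit (limma 3.58.1, R 4.3.3) held all 12 arrays and 1 coefficient per time, 8 residual and 6.64 prior degrees of freedom, and Benjamini-Hochberg adjustment. The fit was tried on simulated data with independent noise around each gene's mean and known shifts at 14 days. Those data had no floor and no array-wide differences in RNA quality or muscle signal, so the trial does not address these. Tables and figures used Python 3.11.15, pandas 2.3.3 and matplotlib 3.10.9.

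The comparison, the 34 gene lists (1320 entries, 880 on the array) and the rule for naming genes were chosen with earlier results of these data known. Genes are named if among the 12 largest called rises or falls without overlap, among the 8 called members of a list with the smallest p, or on a fixed set of inflammation, epidermis and matrix genes. Other named genes were picked with their values known. The alternatives tried were quantile and median scaling, a floor at the 10th or the 40th percentile, no filter or one at the 75th percentile, the most variable probe set, trended or robust variance, array weights, only the groups compared, a replicate block, covariates for the Gapdh ratio and the muscle mean, and each array left out. A lower floor without a filter was added after seeing the data. Left-out fits kept the probe sets chosen on all arrays.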

Additional observations from a re-analysis of the deposited data

Results flagged for a closer look

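Probe sets that name several genes or none were tested apart from the genes, and 11 of 401 were called between 3 and 14 days, 3 higher and 8 lower. They are given here because the comparisons above do not use them. Of the 11, 6 name several genes and 5 name none. The largest fall was in a probe set with no gene name, which read 2406, 6457.5 and 9798 at 3 days and 1837, 589 and 425 at 14 days, a log2 change of −2.79 ± 0.54 (limma adjusted p = 0.0164 over these probe sets). The largest rise was in a probe set naming several genes, at 117, 301 and 71.1 against 649.6, 698 and 1815 (1.92 ± 0.39, adjusted p = 0.0164).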

How the results depend on the processing

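None of the 69 named genes that were called changed direction under an alternative, and 7 of the 31 not called did. With the Gapdh ratio as a covariate Sprr1a (0.00 in the reported fit) was at 0.112 and Acta2 at −0.129. With the muscle mean Sprr1a was at 0.12, Sprr2b at 0.14 and Gjb2 at 0.0169. With array weights Sprr1a was at 0.0562 and Acta2 at −0.0040, and with quantile scaling Sprr1a was at 0.0327. With an array left out the changes ran from −1.08 to 0.286 for Krt16, −0.19 to 0.292 for Sprr1a, −0.608 to 0.193 for Sprr2b, −0.433 to 0.101 for Gjb2, −0.124 to 0.346 for Col3a1, −0.548 to 0.0719 for Lox and −0.272 to 0.38 for Acta2. From 3 to 14 days the count of 118 called genes became 63 with no filter (5599 genes tested) and 364 with array weights. It ranged from 59 to 110 with each array left out, and stayed between 83 and 139 under the other settings. Of the 69, 39 were called under every left-out array. From 0 hours to 14 days the count of 353 became 153 with only the groups compared, 2 with the Gapdh ratio as a covariate, 10 with the muscle mean, and 119 to 486 with an array left out. For the probe sets naming several genes or none, the count of 11 became 4 with no filter, 5 with a filter at the 75th percentile, 23 with array weights, 3 with only the groups compared, 4 with the lower floor and no filter (chosen after seeing the data), and 4 to 12 with an array left out. The cause was not tested. The labels do not say whether arrays of equal replicate number were paired, and the reported fit used no pairing. Correlations of their deviations from the group means at 3 and 14 days were −0.119, 0.0394 and −0.2. So few values cannot settle it. With a replicate block 88 genes were called, 87 of them among the 118, against 317 from 0 hours to 14 days and 10 of the other probe sets. Signals under the floor have no order, so their folds are lower bounds.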

Other observations

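Genes on none of the lists made up 13 of the called rises and 30 of the called falls, and the 4 largest of each, apart from Slfn4, are given here as values chosen after they were seen. Igfbp2, an insulin-like growth factor binding protein, read 492, 531 and 339.6 at 3 days and 1425, 1698 and 1502 at 14 days (1.79 ± 0.31, limma adjusted p = 0.00356). The groups were well apart, and it was called under every omission of an array. Mdk, the growth factor midkine, rose by 1.49 ± 0.27 and was called under every omission of an array. C1qtnf3, a secreted relative of C1q, rose by 1.42 ± 0.34 (adjusted p = 0.0335) and was lost on omission of any array except 14 days replicate 3 (highest adjusted p = 0.162), and Tmpo, a protein of the nuclear lamina, rose by 1.29 ± 0.23 and was called under every omission of an array.

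Among the falls, Plac8, a gene of myeloid cells, read 5629, 4629.8 and 4675 at 3 days and 1748, 1315 and 1187 at 14 days (−1.83 ± 0.20, adjusted p = 0.000127). It was called under every omission of an array. Rarres2, which encodes the leukocyte attractant chemerin, changed by −1.87 ± 0.28 (adjusted p = 0.00141) and was called under every omission of an array. Bcl3, a member of the I-kappaB family, changed by −1.82 ± 0.35 (adjusted p = 0.00853) with all 14 days arrays under the floor, and was called under every omission of an array. The interferon-inducible Ifi27l2a changed by −1.75 ± 0.44 (adjusted p = 0.0397), a call lost whichever array was left out (highest adjusted p = 0.168).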
